A study of Mus musculus with 10 samples.

Results

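The 34 genes described here are the MYC transcription factor genes Myc, Mycn and Mycl, their partner Max, the antagonists Mxd1 and Mxd4, 25 genes of ribosome assembly and 3 enzymes of nucleotide and polyamine synthesis. They were chosen by gene symbol, and each symbol matched 1 row among the 56748 genes of the table. Expression was measured by bulk RNA sequencing of 10 mouse gastric tumours, 5 called inflamed and 5 called desert by the study, and was deposited as FPKM, that is, reads per unit of gene length and sequencing depth. The inflamed tumours were labelled with the genotype Tff1-CreERT2;Apcfl/fl;Trp53fl/fl, in which a tamoxifen-inducible Cre recombinase driven by Tff1, a gene of gastric surface epithelium, deletes floxed parts of Apc and Trp53. The desert tumours were orthotopic allografts, tumour cells placed in the stomach of a host mouse, with wild type as the genotype. Whether that genotype belongs to the host or to the graft, what the grafted cells carry, and the strain, age and sex of the mice are not stated in the labels. Because model, genotype and tumour type coincide, their shares in any difference cannot be told apart. Nothing in the sources says that the tumours of a group came from separate grafts or cell lines. The 5 of a group may therefore not be independent. The p-values weigh group differences only against the spread among these samples.

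MYC proteins pair with MAX and bind the E-box, a short DNA motif whose canonical form is CACGTG, and they drive genes of cell growth. The MXD proteins compete for the same partner and repress the same sites. Ribosome assembly is a well known output of MYC: RNA polymerase I copies the ribosomal RNA genes in the nucleolus, small nucleolar ribonucleoproteins modify the transcript, and separate sets of factors fold and cut it into the small and the large subunit. In the gut, Myc is a target of Wnt signalling, the pathway that APC restrains.

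The targeted genes were not lower in the tumours labelled with floxed alleles. Trp53 read 7.05, 7.75, 9.06, 8.58 and 10.4 FPKM across inflamed tumours 1 to 5, against 1.95, 1.89, 2.81, 2.69 and 3.47 FPKM across desert tumours 1 to 5, and was higher in inflamed tumours without overlap (log2 difference 1.43, SE 0.14, limma adjusted p = 6.84e-06, and 1.38 on TPM). Apc read 5.42, 5.33, 8.29, 6.38 and 6.50 FPKM against 3.00, 3.75, 4.86, 5.57 and 4.62 FPKM in the same order, with groups that overlapped (log2 difference 0.47, limma adjusted p = 0.0182), and it did not pass on TPM (0.25, adjusted p = 0.29). Without tumours of known Trp53 state to compare, these levels do not show whether Trp53 RNA was lost in the inflamed tumours. Values per gene do not show single exons, so whether the floxed parts were deleted was not tested, and what the desert tumours carry at these genes is not stated. All directions below are between libraries labelled inflamed and libraries labelled desert.

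The libraries held 14148147 to 16951640 reads in genes, recovered from the steps of the FPKM values, and single members held 70 to 16086 reads in a tumour. The 10 gastric epithelial markers took 2.85% to 11.9% of the FPKM sum in inflamed tumours, the highest in inflamed tumour 4, and at most 0.0237% in desert tumours, where 3 of the 10 stayed below 0.5 FPKM in every tumour. Of these markers 8 of 10 were called higher in inflamed tumours, none lower. The 16 immune cell markers summed to 99.2 to 410 FPKM in inflamed against 11.4 to 25.2 FPKM in desert tumours, with Ms4a1 listed at 0 in all desert tumours. The 8 pan-epithelial markers summed to 3465 to 6544 and 1592 to 2361 FPKM, with 5 called higher, 2 not called and Grhl2, an epithelial transcription factor, called lower. Smooth muscle markers summed to 72.1 to 799 and 7.49 to 40.6 FPKM (5 of 6 tested called higher), fibroblast markers to 99.7 to 291 and 62.7 to 132 FPKM (3 of 8 higher) and endothelial markers to 17.3 to 47.5 and 15.96 to 22.6 FPKM (3 of 7 higher), and none of these was called lower. Over all tested genes 31.0% were called higher, near the shares of the fibroblast (37.5%) and endothelial markers (42.9%). The part that other cell types and these abundant transcripts play in the differences below was not tested. In bulk tissue, fewer cells of a type and less RNA per cell cannot be told apart.

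Of the 34 members, 20 were lower and 5 higher in inflamed than in desert tumours, and 9 did not pass the test (limma on log2(FPKM + 1), Benjamini-Hochberg adjusted p under 0.05 over 16750 genes). Over all genes tested 31.2% were lower and 31.0% higher, 62.2% in all. On TPM the shares were 41.7% lower and 22.5% higher. Counts of members or of list genes below are to be read beside these shares. The median log2 difference was -0.38 over the members and -0.007 over all tested genes. All 34 members passed the filter of a mean FPKM of at least 0.5. On FPKM, the groups did not overlap in 17 members that were lower and 3 that were higher in inflamed tumours, against 24.4% of all genes in each direction and 48.9% in either. The 3 were Myc, Mxd1 and Mxd4, and Myc counted only by 17.8703 FPKM in inflamed tumour 4 against 17.8696 FPKM in desert tumour 1. Overlap was not counted on TPM. A test for more than 1.5-fold change called 4 members lower (Mycn, Mycl, Polr1a and Fbl) and 1 higher (Mxd1), against 9.48% and 12.9% of all genes.

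The MYC paralogs went in opposite directions: Myc was higher in inflamed tumours, and Mycn and Mycl were higher in desert tumours. Myc (ENSMUSG00000022346, chromosome 15, 61857240 to 61862223 in the deposited table) read 25.2, 24.4, 23.1, 17.9 and 25.7 FPKM across inflamed tumours 1 to 5, against 17.9, 12.5, 9.60, 15.9 and 10.8 FPKM across desert tumours 1 to 5. The lowest inflamed tumour, number 4, and the highest desert tumour, number 1, were level at 17.9 FPKM, and the other inflamed tumours lay above all desert tumours. The means were 23.3 ± 3.18 and 13.3 ± 3.47 FPKM (SD, n = 5 each), a ratio of 1.75 (log2 difference 0.78, SE 0.16, limma adjusted p = 0.00168).

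Mycn (ENSMUSG00000037169, chromosome 12, 12986094 to 12991915), the paralog known from neural tumours and embryonic tissue, read 1.72, 1.26, 3.02, 1.91 and 1.46 FPKM across inflamed tumours 1 to 5, against 10.4, 13.7, 9.13, 18.1 and 10.8 FPKM across desert tumours 1 to 5. Every desert tumour stood above every inflamed one, and the desert mean was 6.61 times the inflamed mean (fell by 2.21 on the log2 scale in inflamed, SE 0.20, limma adjusted p = 3.5e-06). Mycl (ENSMUSG00000028654, chromosome 4, 122889445 to 122896278), first found in small cell lung cancer, read 3.98, 4.86, 4.49, 3.11 and 2.80 FPKM across inflamed, against 9.05, 15.4, 17.1, 15.6 and 22.6 FPKM across desert tumours 1 to 5. Its groups did not overlap either, and desert tumours 1 and 5 marked the lowest and highest desert values (4.15 times the inflamed mean, log2 difference -1.77, SE 0.21, limma adjusted p = 2.82e-05).

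As a share of the FPKM summed over the paralogs, Myc held 75.5% to 85.8% among inflamed and 24.4% to 47.9% among desert tumours. Mycn held 4.12% to 9.86% and 24.4% to 36.5%, and Mycl 9.33% to 15.9% and 24.3% to 51.2%, in the same order. The sum itself was 22.9 to 30.9 FPKM in inflamed against 35.8 to 49.5 FPKM in desert tumours, so total paralog RNA per length was higher in desert tumours although Myc was lower. Within inflamed tumours the order Myc, Mycl, Mycn held in all 5. Among desert tumours the leading paralog was Myc in tumour 1, Mycn in tumour 4 and Mycl in tumours 2, 3 and 5, so the paralogs had no common order there.

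**Figure D1:**
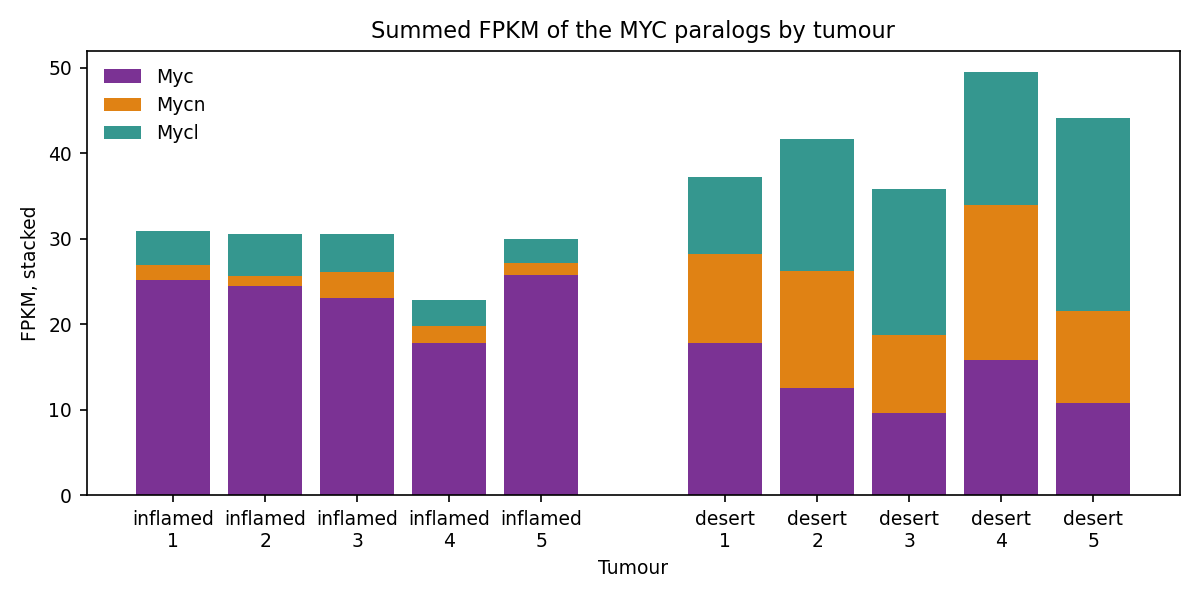
FPKM of Myc, Mycn and Mycl stacked for each of the 10 tumours (y axis, FPKM per tumour). Myc makes up 75.5% to 85.8% of the bar in inflamed tumours and 24.4% to 47.9% in desert tumours, whose bars are also taller (35.8 to 49.5 against 22.9 to 30.9 FPKM).

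Max was lower, and the antagonists Mxd1 and Mxd4 were higher, in inflamed tumours. Other repressors that bind MAX did not follow Mxd1 and Mxd4: Mga was lower (4.86 ± 0.826 against 10.4 ± 1.28 FPKM, SD, n = 5 each; limma adjusted p = 3.99e-05), and Mxi1 (log2 difference -0.23, limma adjusted p = 0.108), Mnt (-0.15, adjusted p = 0.0938) and Mxd3 (-0.14, adjusted p = 0.589) did not pass. On TPM, Mxi1 and Mnt were called lower too. Max (ENSMUSG00000059436, chromosome 12, 76984043 to 77008975), the partner that all MYC and MXD proteins need, read 20.6, 20.2, 18.6, 21.7 and 23.2 FPKM across inflamed, against 32.9, 30.2, 30.6, 32.4 and 32.9 FPKM across desert tumours 1 to 5. The spread inside each group was small beside the gap between them (20.9 ± 1.71 and 31.8 ± 1.302 FPKM, SD, n = 5 each, log2 difference -0.59, SE 0.08, limma adjusted p = 5.41e-05). Mxd1 (ENSMUSG00000001156, chromosome 6, 86624024 to 86646143), an antagonist that accompanies terminal differentiation, read 13.1, 9.33, 16.3, 49.7 and 31.8 FPKM across inflamed, against 4.46, 3.55, 4.199, 5.01 and 4.48 FPKM across desert tumours 1 to 5. Inflamed tumours 4 and 5 were the highest. Inflamed tumour 4 also had the largest share of gastric marker RNA and the lowest Myc of its group. Inflamed tumour 5, however, had the highest Myc of its group (25.7 FPKM). Its gastric marker share (5.92%) was below that of inflamed tumour 3 (6.64%). Mxd1 was 5.54 times higher in the inflamed mean (log2 difference 1.99, SE 0.37, limma adjusted p = 0.000729). Mxd4 (ENSMUSG00000037235, chromosome 5, 34331227 to 34345064), a related repressor, read 13.3, 13.7, 15.1, 10.97 and 9.26 FPKM across inflamed, against 3.47, 4.98, 7.602, 8.51 and 7.25 FPKM across desert tumours 1 to 5. Its inflamed tumours ran in another order than those of Mxd1, with tumours 4 and 5 lowest, and the groups did not overlap (1.96 times, log2 difference 0.90, SE 0.21, limma adjusted p = 0.0029).

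The sum of Mxd1 and Mxd4 was 1.14 to 2.79 times the Max level in inflamed tumours and 0.241 to 0.417 times in desert tumours. The MYC paralogs together were at 0.377 to 1.33 times the sum of Mxd1 and Mxd4 in inflamed and at 3.04 to 4.88 times in desert tumours. With Mxi1, Mnt, Mxd3 and Mga added to that sum, the paralogs were at 0.280 to 0.712 times in inflamed and 0.882 to 1.15 times in desert tumours. These are ratios of FPKM, given as a description with no test, since their parts were called one by one.

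**Figure D2:**
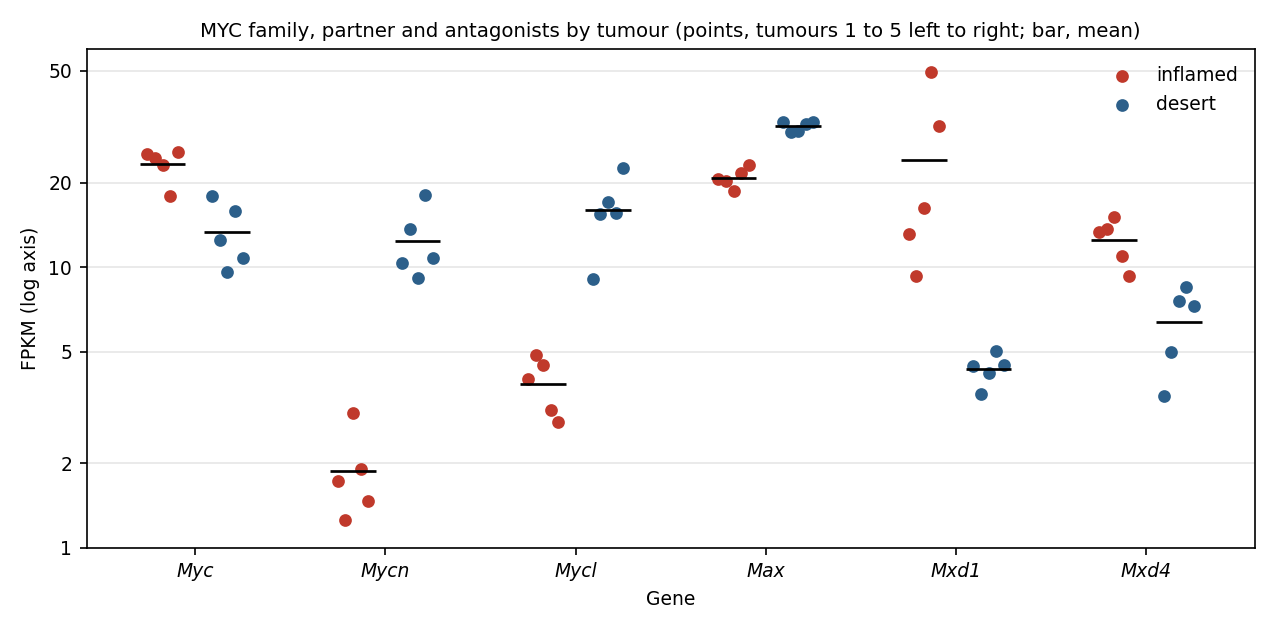
FPKM on a log axis for Myc, Mycn, Mycl, Max, Mxd1 and Mxd4, with 1 point per tumour (tumours 1 to 5 from left to right, inflamed in red, desert in blue) and a bar at each group mean. Myc, Mxd1 and Mxd4 lie higher in inflamed tumours and Mycn, Mycl and Max in desert tumours; for Myc the closest tumours of the groups are level at 17.9 FPKM.

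Of 18 other genes of the MYC network, 2 were higher and 9 lower in inflamed tumours, and 7 did not pass (median log2 difference -0.24). The shares over all genes were 31.0% higher and 31.2% lower. Mlxip, a sugar-responsive relative of the family, averaged 13.8 ± 1.41 FPKM in inflamed against 4.65 ± 0.564 FPKM in desert tumours (limma adjusted p = 4.78e-07). Ruvbl1 and Ruvbl2, paired ATPases that serve both MYC-bound chromatin complexes and the assembly of nucleolar particles, fell. Ruvbl1 was at 15.0 ± 2.26 against 46.2 ± 5.91 FPKM (limma adjusted p = 1.1e-06) and Ruvbl2 at 14.4 ± 1.78 against 31.0 ± 2.27 FPKM (SD, n = 5 each; limma adjusted p = 3.67e-06).

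Since MYC and MXD proteins meet at the same motif, the promoter windows of the members were searched for it. RefSeq windows of build GRCm38.p6, from 250 bases before to 50 bases after the start of a gene, were at hand for 26 of the 34 members. The motif CACGTG reads the same on both strands. It stood in the window of 6 of these 26 genes (23.1%), and in that of 2187 of all 27025 genes with a window (8.09%), and in no member more than once. The wider set holds genes whether expressed or not and was not matched to the members for base composition. The part of either in the gap between the shares was not tested. The 6 were Max, Mxd4, Nop2, Pes1, Utp20 and Wdr43. Max, Nop2, Pes1 and Utp20 were lower in inflamed tumours, Mxd4 was higher and Wdr43 did not pass, so genes with a match went in both directions. Among the 26 genes, 4 of 15 called lower, 1 of 4 called higher and 1 of 7 not called held the motif. The core CANNTG, which includes CACGTG, stood in 65.4% of the members' windows and 75% of all. A match describes letters and was not tested as a binding site. Windows of 4 of the 6 genes are shown as examples, 5′ to 3′ on the gene's strand with CACGTG in capitals. They are those of Max, Mxd4 and the large subunit factors Nop2 and Pes1, and those of Utp20 and Wdr43 are left out. The first base of the motif lies at -3 from the start in Max, -219 in Mxd4, -60 in Nop2 and 3 in Pes1, where 1 is the first transcribed base.
Max, chr12:76962199-76962498 (- strand): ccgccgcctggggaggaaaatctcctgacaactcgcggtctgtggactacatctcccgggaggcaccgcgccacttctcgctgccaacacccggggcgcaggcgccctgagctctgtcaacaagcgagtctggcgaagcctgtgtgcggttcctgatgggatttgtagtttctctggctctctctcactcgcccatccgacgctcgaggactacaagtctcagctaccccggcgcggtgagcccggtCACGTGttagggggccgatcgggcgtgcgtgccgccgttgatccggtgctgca
Mxd4, chr5:34187661-34187960 (- strand): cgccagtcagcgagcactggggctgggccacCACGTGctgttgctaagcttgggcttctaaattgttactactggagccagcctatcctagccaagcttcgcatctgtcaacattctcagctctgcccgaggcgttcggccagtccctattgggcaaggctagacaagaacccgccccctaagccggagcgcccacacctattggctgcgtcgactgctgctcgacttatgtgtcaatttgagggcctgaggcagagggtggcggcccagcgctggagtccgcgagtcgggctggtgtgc
Nop2, chr6:125131633-125131932 (+ strand): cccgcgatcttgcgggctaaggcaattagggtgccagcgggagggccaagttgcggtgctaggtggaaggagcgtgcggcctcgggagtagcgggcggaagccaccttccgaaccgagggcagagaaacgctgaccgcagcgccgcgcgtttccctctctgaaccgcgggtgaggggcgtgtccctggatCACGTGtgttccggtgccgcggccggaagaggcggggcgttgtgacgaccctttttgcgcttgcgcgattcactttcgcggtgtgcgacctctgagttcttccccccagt
Pes1, chr11:3963725-3964024 (+ strand): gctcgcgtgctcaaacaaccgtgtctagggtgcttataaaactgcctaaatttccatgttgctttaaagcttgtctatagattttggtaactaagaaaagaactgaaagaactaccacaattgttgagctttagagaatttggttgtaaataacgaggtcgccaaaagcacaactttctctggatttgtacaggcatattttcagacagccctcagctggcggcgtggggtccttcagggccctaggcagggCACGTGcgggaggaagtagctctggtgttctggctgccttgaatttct

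The 25 ribosome assembly members were mostly higher in desert tumours: 16 fell and 2 rose in inflamed tumours, and 7 did not pass (median log2 difference -0.42). Over all genes 31.2% fell and 31.0% rose. Of the 25, 13 had groups that did not overlap, all of them higher in desert tumours, against 24.4% of all genes in that direction. Only Polr1a and Fbl among the 25 differed by more than 1.5-fold by the test of that floor, which called 9.48% of all genes lower.

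RNA polymerase I was represented by its catalytic core. Polr1a (ENSMUSG00000049553, chromosome 6, 71886037 to 71961919), its largest subunit, read 5.54, 5.004, 5.23, 3.67 and 4.77 FPKM across inflamed, against 9.32, 14.1, 15.8, 18.6 and 14.0 FPKM across desert tumours 1 to 5. All desert tumours lay above the inflamed ones, and the desert mean was 2.97 times the inflamed mean (log2 difference -1.37, SE 0.16, limma adjusted p = 2.6e-05). Polr1b, the second largest subunit, moved less, reading 8.70, 8.07, 9.09, 6.25 and 7.62 FPKM across inflamed, against 9.22, 9.51, 10.2, 11.3 and 9.73 FPKM across desert tumours 1 to 5. Its nearest tumours, inflamed 3 and desert 1, were 9.09 and 9.22 FPKM (1.26 times higher in desert, limma adjusted p = 0.0206, and 0.0608 with the tumour number as a block). Here and below that block is a sensitivity check only, since no pairing of same-numbered tumours is stated. Polr1a over Polr1b, partners in 1 enzyme, gave a ratio of 0.575 to 0.637 among inflamed and of 1.01 to 1.65 among desert tumours. Gm26628, a gene on the strand opposite Polr1a, was at 0.767 ± 0.275 and 2.10 ± 0.957 FPKM (SD, n = 5 each), and whether its reads enter the count of Polr1a was not tested. Of 18 other genes of this machinery, 4 rose and 9 fell (2 and 13 after rescaling to TPM). Over all genes 31.0% rose and 31.2% fell (22.5% and 41.7% on TPM). The basal factor Ubtf, which bends ribosomal DNA, averaged 18.9 ± 1.47 and 32.1 ± 4.89 FPKM (limma adjusted p = 0.000163), and Polr2f, a subunit shared by the RNA polymerases, at 22.2 ± 2.47 and 45.4 ± 10.3 FPKM (limma adjusted p = 0.00019). The opposite held for Polr1d, a subunit shared with RNA polymerase III, at 20.9 ± 3.88 and 9.5 ± 0.840 FPKM (SD, n = 5 each; limma adjusted p = 2.94e-05).

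Among nucleolar scaffolds and chaperones 3 of 4 fell. Npm1, nucleophosmin, which builds the outer granular layer of the nucleolus, read 117, 123, 104, 89.1 and 119 FPKM across inflamed, against 183, 178, 129, 186 and 170.2 FPKM across desert tumours 1 to 5. Npm1 had the highest FPKM of the members in every tumour, over a table length of 2665 bases. Ncl, with a length of 10188 bases, held more reads than Npm1 in every tumour. For Npm1, desert tumour 3 lay nearest to the inflamed group (1.53 times higher in desert, limma adjusted p = 0.00171). Tcof1, treacle, which couples polymerase I to processing, was at 7.32, 7.67, 8.97, 6.56 and 8.94 FPKM and at 12.6, 14.0, 11.96, 15.2 and 12.6 FPKM in the same order, with no overlap (1.68 times, limma adjusted p = 0.000128). Ncl, nucleolin, read 52.4, 51.5, 43.5, 36.8 and 47.0 FPKM across inflamed, against 59.0, 70.3, 52.0, 83.0 and 52.7 FPKM across desert tumours 1 to 5. Inflamed tumour 1 lay above desert tumour 3, and the Ncl call (log2 difference -0.43, SE 0.15, limma adjusted p = 0.0242) was lost without inflamed tumour 4 (adjusted p = 0.0557), desert tumour 2 (0.0583) or desert tumour 4 (0.0508) and with the tumour number as a block (0.0542). Nolc1, a chaperone of nucleolar particles, was at 13.9 to 20.5 FPKM in inflamed against 16.7 to 24.9 FPKM in desert tumours (limma adjusted p = 0.277), and was called lower after rescaling to TPM (-0.48, adjusted p = 0.0308).

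All 3 members of the box C/D particle, which methylates ribosomal RNA, fell. Fbl, fibrillarin, the methyltransferase itself (ENSMUSG00000046865, chromosome 7, 27869135 to 27878694), read 18.8, 17.1, 15.0, 15.0 and 19.0 FPKM across inflamed, against 37.1, 32.9, 26.1, 29.9 and 42.3 FPKM across desert tumours 1 to 5. Its lowest desert tumour was well above the highest inflamed one (1.99 times, log2 difference -0.94, SE 0.13, limma adjusted p = 9.57e-05). The scaffold proteins that hold fibrillarin changed less. Nop56 read 25.8, 27.5, 25.8, 21.1 and 26.3 FPKM across inflamed, against 37.2, 38.1, 32.4, 35.4 and 34.4 FPKM across desert tumours 1 to 5, without overlap (1.40 times, limma adjusted p = 0.000661). Nop58 was at 7.49, 8.16, 6.87, 5.73 and 8.41 FPKM and at 9.97, 11.8, 8.36, 13.6 and 7.68 FPKM in the same order. Desert tumours 3 and 5 lay inside the inflamed range, and the Nop58 call (limma adjusted p = 0.0312) was lost in 9 of 22 alternatives. Among them were those without inflamed tumour 3 (adjusted p = 0.0626), inflamed tumour 4 (0.0716), desert tumour 1 (0.0502), desert tumour 2 (0.0742) or desert tumour 4 (0.0686) and that with the tumour number as a block (0.0696).

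Of the 2 members of the box H/ACA particle, which makes pseudouridine, 1 fell. Dkc1, dyskerin, its catalytic subunit, read 10.5, 10.99, 10.96, 9.17 and 11.4 FPKM across inflamed, against 14.5, 12.3, 12.5, 11.98 and 14.2 FPKM across desert tumours 1 to 5. The groups did not overlap (1.24 times, limma adjusted p = 0.0132). Gar1, a subunit of the same particle, ranged over 16.9 to 21.2 and 16.3 to 29.1 FPKM and did not pass (limma adjusted p = 0.21). It passed as lower in inflamed without desert tumour 3 (-0.31, adjusted p = 0.0485) and after rescaling to TPM (-0.51, adjusted p = 0.0163). Of 11 other genes that make up or assemble the snoRNA particles, 9 fell and 1 rose, against 31.2% and 31.0% of all genes. After rescaling to TPM 10 fell and 1 rose, against 41.7% and 22.5% of all genes. Naf1, an assembly factor of the H/ACA particle, averaged 5.25 ± 1.34 and 11.6 ± 1.97 FPKM (limma adjusted p = 0.000322). Nhp2, a core protein, averaged 46.1 ± 4.19 and 74.5 ± 9.72 FPKM (limma adjusted p = 0.00022), while the core protein Nop10 was at 29.9 ± 1.59 and 33.5 ± 2.36 FPKM (adjusted p = 0.096). Tgs1, which caps small RNAs, was higher in inflamed tumours (4.91 ± 0.562 against 2.63 ± 0.406 FPKM, SD, n = 5 each; limma adjusted p = 0.000146).

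Factors of the small subunit processome went both ways. Nop14 read 14.0, 13.2, 13.5, 10.2 and 13.1 FPKM across inflamed, against 9.07, 9.38, 8.90, 11.7 and 10.2 FPKM across desert tumours 1 to 5. Inflamed tumour 4 lay inside the desert range, and the other inflamed tumours lay above it (log2 difference 0.34, SE 0.10, limma adjusted p = 0.0133). Nop14 no longer passed on the TPM scale (0.07, adjusted p = 0.704), with voom on the recovered reads (0.30, adjusted p = 0.0875) and with the tumour number as a block (adjusted p = 0.0544). Rrp9, which binds the U3 snoRNA, read 7.86, 7.30, 7.12, 6.36 and 7.62 FPKM across inflamed, against 5.71, 6.26, 6.33, 6.33 and 6.52 FPKM across desert tumours 1 to 5. Its call (log2 difference 0.19, SE 0.07, limma adjusted p = 0.0451) was lost without any 1 of the tumours other than inflamed tumour 4 (adjusted p = 0.0517 to 0.105), and its sign turned after rescaling to TPM (-0.08, adjusted p = 0.608). Parp3, on the strand opposite Rrp9, was at 12.3 ± 1.55 and 3.77 ± 1.26 FPKM (SD, n = 5 each), and whether its reads enter the Rrp9 value was not tested.

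Utp20, a scaffold of the same complex, fell. It read 5.39, 5.77, 5.50, 3.43 and 5.09 FPKM across inflamed, against 6.36, 7.18, 6.88, 5.94 and 6.68 FPKM across desert tumours 1 to 5, without overlap (limma adjusted p = 0.0235, and 0.0547 without desert tumour 2). Rrp12 ranged over 4.75 to 7.02 FPKM in inflamed against 5.84 to 8.07 FPKM in desert tumours (limma adjusted p = 0.152), and was called lower after rescaling to TPM (-0.50, adjusted p = 0.0204). Wdr43 ranged over 12.1 to 20.3 and 12.3 to 18.1 FPKM (limma adjusted p = 0.139). Inflamed tumour 4 was its lowest value of all, and without that tumour Wdr43 was called higher in inflamed tumours (0.40, adjusted p = 0.0142). Of 46 other genes of small subunit assembly, 26 fell, 7 rose and 13 did not pass (median log2 difference -0.30, and 32 and 2 after rescaling to TPM). The shares over all genes were 31.2% and 31.0% (41.7% and 22.5% on TPM). Mphosph10, a processome protein, averaged 7.03 ± 0.564 and 13.6 ± 1.12 FPKM (limma adjusted p = 5.07e-06). Fcf1, a nuclease-like factor, averaged 25.4 ± 3.33 and 35.6 ± 2.94 FPKM (limma adjusted p = 0.0019), Utp11 at 12.9 ± 3.01 and 5.19 ± 0.424 FPKM (limma adjusted p = 3.18e-05) and Imp3, which pairs U3 with its target, at 46.5 ± 5.43 and 43.5 ± 4.35 FPKM (SD, n = 5 each; adjusted p = 0.462).

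Large subunit factors were lower in inflamed tumours in 6 of 9 members and higher in none. Pes1, Bop1 and Wdr12 form the PeBoW complex, and all 3 fell. Bop1 read 20.8, 17.9, 18.2, 20.3 and 20.4 FPKM across inflamed, against 30.9, 30.1, 25.6, 28.7 and 28.8 FPKM across desert tumours 1 to 5, without overlap (1.48 times, limma adjusted p = 0.000129). Scx lies on the strand opposite Bop1 and was at 2.21 ± 0.316 and 13.0 ± 5.26 FPKM (SD, n = 5 each), and whether its reads enter the Bop1 value was not tested. Pes1, whose window is shown above, was at 33.4, 28.6, 27.5, 20.99 and 26.2 FPKM and at 39.8, 38.1, 32.3, 37.0 and 39.9 FPKM in the same order. Inflamed tumour 1 lay above desert tumour 3 (1.37 times, limma adjusted p = 0.00603). Wdr12 was at 2.09, 2.21, 1.74, 1.38 and 1.81 FPKM and at 2.71, 3.68, 2.95, 4.36 and 2.80 FPKM, without overlap (1.79 times, limma adjusted p = 0.00235). Wdr12 RNA per length was far below that of its partners in every tumour, but its table length was 11955 bases, against 2957 for Bop1 and 3024 for Pes1. In reads Wdr12 was also the lowest of these genes in every tumour, by a smaller factor. Wdr12, Bop1 and Pes1 held 440, 1082 and 1780 reads in inflamed tumour 1, and 497, 1401 and 1849 in desert tumour 1. Whether the RNAs of the complex differ in copy number was not tested.

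The other called factors of the large subunit were Nop2, Rrs1 and Ddx21. Nop2, a methyltransferase known as a proliferation antigen, read 18, 16.2, 17.4, 14.4 and 19.0 FPKM across inflamed, against 26.4, 28.3, 27.3, 36.6 and 31.3 FPKM across desert tumours 1 to 5 (1.76 times, log2 difference -0.78, SE 0.11, limma adjusted p = 8.62e-05). Rrs1, which helps to bring the 5S particle into the subunit, was at 21.4, 19.9, 18.5, 16.5 and 17.7 FPKM and at 32.9, 30.8, 29.8, 40.5 and 29.0 FPKM (1.73 times, log2 difference -0.76, SE 0.11, limma adjusted p = 0.000102). In both genes desert tumour 4 was the highest and inflamed tumour 4 the lowest, with a clear gap between the groups. Ddx21, an RNA helicase, read 32.9, 33.9, 30.6, 21.4 and 31.6 FPKM across inflamed, against 46.1, 48.0, 45.8, 40.2 and 44.9 FPKM across desert tumours 1 to 5 (1.496 times, limma adjusted p = 0.00163). Nop16 (14.3 to 16.99 and 11.2 to 16.9 FPKM, limma adjusted p = 0.169), Gnl3, nucleostemin (7.26 to 13.2 and 8.502 to 11.9 FPKM, adjusted p = 0.899), and Nip7 (7.83 to 10.5 and 7.53 to 12.3 FPKM, adjusted p = 0.674) had overlapping groups and were not called. Of 44 other genes of large subunit assembly, 19 fell, 8 rose and 17 did not pass (median log2 difference -0.12, and 26 and 3 after rescaling to TPM). The shares over all genes were 31.2% and 31.0% (41.7% and 22.5% on TPM). Pelp1, of the complex that releases the precursor from the nucleolus, averaged 8.999 ± 1.22 and 23.5 ± 1.67 FPKM (limma adjusted p = 7.47e-07), and Rsl1d1 at 35.3 ± 4.95 and 62.5 ± 5.63 FPKM (limma adjusted p = 8.9e-05). Rrp1 was at 45.0 ± 0.967 and 49.1 ± 8.17 FPKM (adjusted p = 0.417), and Eif6, which keeps the subunits apart, was higher in inflamed tumours (48.5 ± 4.12 against 27.8 ± 3.00 FPKM, SD, n = 5 each; limma adjusted p = 3.48e-05).

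**Figure D3:**
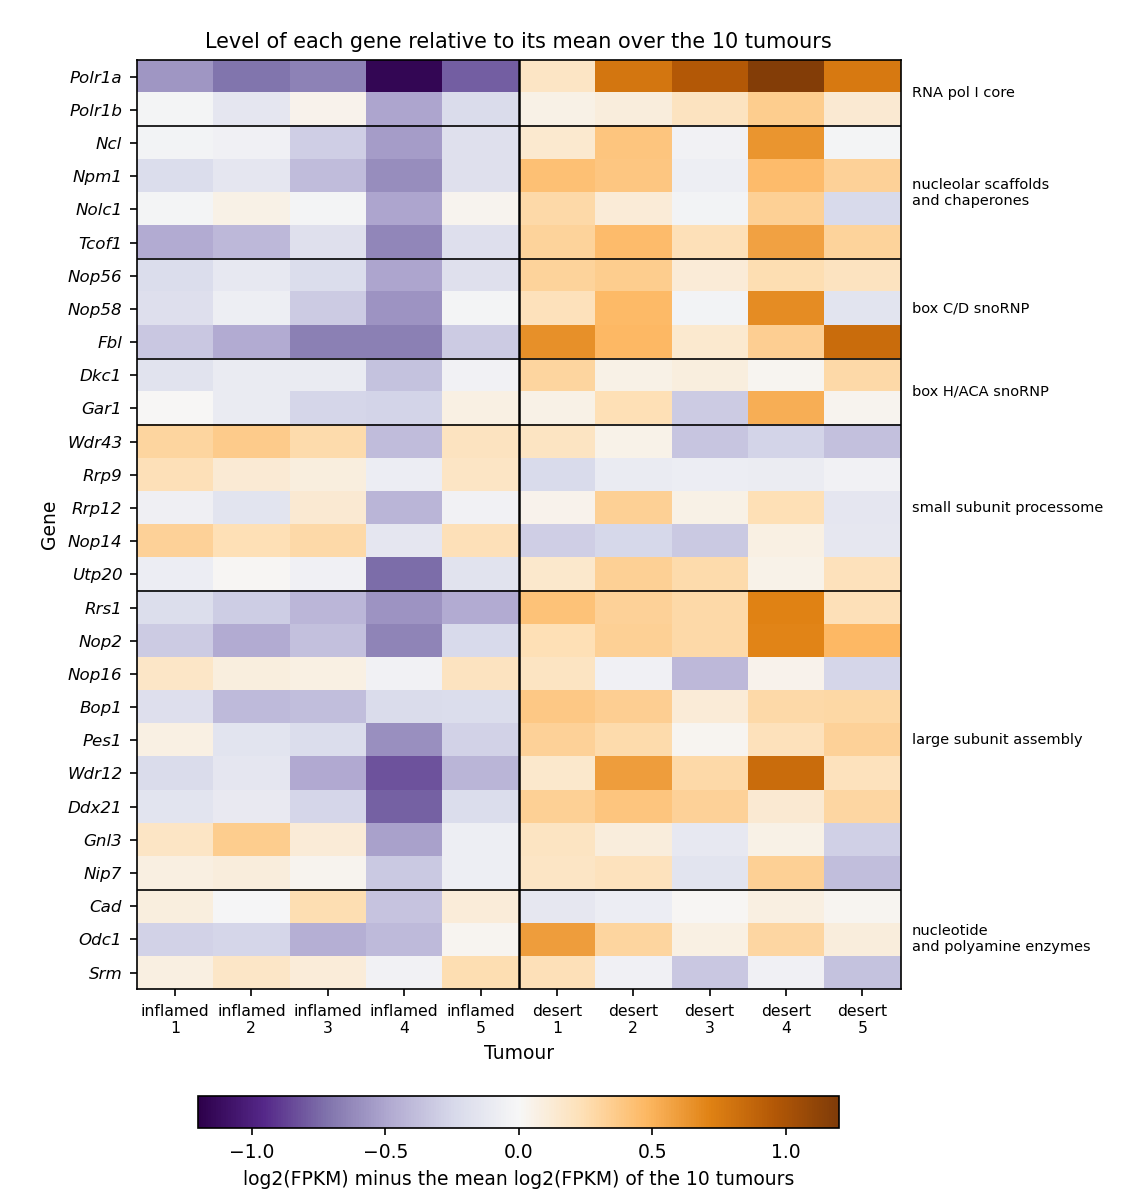
Each row is a gene and each column a tumour; colour gives log2(FPKM) minus the gene's mean over the 10 tumours, purple below and orange above, with rows grouped by role. Most rows are orange in desert tumours, Polr1a has the strongest contrast (3.67 to 5.54 against 9.32 to 18.6 FPKM), several small subunit rows go the other way, and inflamed tumour 4 is the lowest inflamed column in most rows.

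Of the 3 metabolic enzymes, 1 fell. Odc1, ornithine decarboxylase, the rate-limiting enzyme of polyamine synthesis and a classic MYC target, read 46.6, 47.1, 41.3, 42.9 and 57.2 FPKM across inflamed, against 85.0, 69.8, 59.3, 69.4 and 60.5 FPKM across desert tumours 1 to 5. The groups came close at inflamed tumour 5 and desert tumour 3 but did not overlap (1.46 times, log2 difference -0.54, SE 0.12, limma adjusted p = 0.00265). Srm, spermidine synthase, the next step, ranged over 21.7 to 26.4 FPKM in inflamed against 17.3 to 26.1 FPKM in desert tumours (limma adjusted p = 0.118), and without desert tumour 1, its highest desert value, it was called higher in inflamed tumours (0.30, adjusted p = 0.0204). Cad, which starts pyrimidine synthesis, ranged over 5.81 to 8.77 and 6.79 to 7.83 FPKM (limma adjusted p = 0.807).

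Among 10 other polyamine genes 3 fell and 1 rose, and 5 and 1 after rescaling to TPM. The share that fell (30%) was near that of all genes (31.2%, and 41.7% on TPM). The 2 polyamine oxidases went apart: Smox, spermine oxidase, averaged 20.7 ± 3.79 FPKM in inflamed against 86.1 ± 7.31 FPKM in desert tumours (limma adjusted p = 3.22e-07), and Paox at 7.89 ± 0.774 and 1.95 ± 0.593 FPKM (limma adjusted p = 4.28e-06). Oaz1, the antizyme that sends ODC1 to degradation, was at 128 ± 14.9 and 129 ± 22.1 FPKM (adjusted p = 0.973), and Sat1 at 65.0 ± 6.09 and 54.5 ± 29.8 FPKM (SD, n = 5 each; adjusted p = 0.249). Of 22 genes of purine, pyrimidine and folate metabolism, 12 fell and 2 rose (14 and 0 after rescaling to TPM). The shares over all genes were 31.2% and 31.0% (41.7% and 22.5% on TPM). The mitochondrial folate enzymes Mthfd1l and Shmt2 fell, Mthfd1l at 7.64 ± 0.938 against 32.0 ± 10.1 FPKM (limma adjusted p = 5.39e-06) and Shmt2 at 14.4 ± 2.54 against 37.2 ± 3.84 FPKM (limma adjusted p = 4.5e-06). Impdh2, of guanine nucleotide synthesis, rose (24.8 ± 2.73 against 17.6 ± 2.57 FPKM, limma adjusted p = 0.00286), and Paics was at 58.3 ± 7.06 and 55.0 ± 8.66 FPKM (SD, n = 5 each; adjusted p = 0.56).

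Tumours of 1 type were not alike in these genes. Inflamed tumour 4 held the lowest value of its group in 27 of the 34 members, against 27.7% of all tested genes, and the highest in 1, which was Mxd1. On the TPM scale, where every tumour has the same sum, it was lowest in 31 members, against 52.9% of all genes. The median of the 25 ribosome assembly members, each relative to its mean over the 10 tumours, was -0.52 (log2 FPKM) in inflamed tumour 4 and -0.21 to -0.08 in the other inflamed tumours. In desert tumours it was 0.06 to 0.33 on FPKM, lowest in tumour 3, and 0.21 to 0.53 on TPM, lowest in tumour 1, and on both scales tumours 2 and 4 were the highest. Desert tumour 4 held the highest value of its group in 17 members (23.1% of all genes), and in 20 on TPM (27.4%). Which desert tumour was most often lowest depended on the scale: tumour 3 in 13 members on FPKM (16.6% of all genes) and 8 on TPM (11.1%), and tumour 1 in 8 on FPKM (26.2%) and 13 on TPM (38.8%). The median coefficient of variation of the members was 13.8% in inflamed and 14% in desert tumours, against 18.7% and 20.3% over all tested genes, and it was 7.72% in inflamed tumours without tumour 4, against 15.7% over all tested genes. Without that tumour 18 members were lower and 6 higher.

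The size of the differences depended on how the libraries were scaled. Rescaling to TPM put the median log2 difference of all tested genes at -0.28, and that of the members at -0.71. On that scale 23 members were lower and 3 higher, against 41.7% and 22.5% of all genes, and the 3 were Myc (0.52, limma adjusted p = 0.0292), Mxd1 (1.85) and Mxd4 (0.69). Over all genes the share of calls that were higher was 49.9% on FPKM and 35% on TPM. Relative to the median of all genes, the median of the members was -0.38 on FPKM and -0.43 on TPM. The signs of Wdr43, Nop16, Srm, Gnl3 and Cad, none of them called, turned from positive on FPKM to negative on TPM, as did that of Rrp9.

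**Figure D4:**
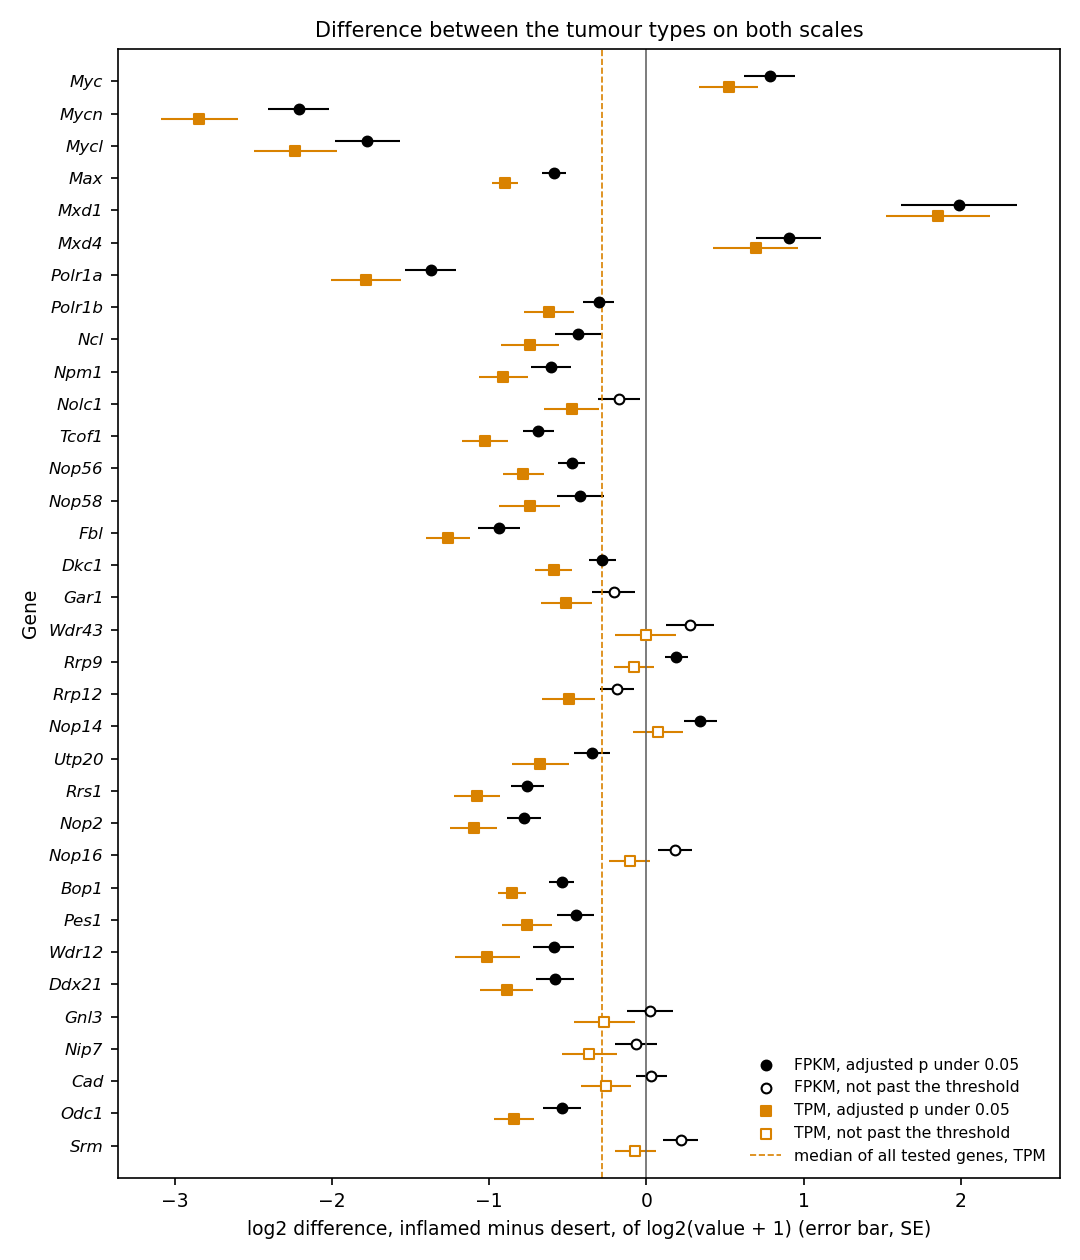
Log2 difference, inflamed minus desert, with its SE for all 34 genes on the FPKM scale (black circles) and the TPM scale (orange squares), filled where the adjusted p was under 0.05; the dashed line is the median of all tested genes on TPM. Squares lie left of their circles, 20 genes are called lower on FPKM and 23 on TPM, and Myc, Mxd1 and Mxd4 are called higher on both.

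Some members host small nucleolar RNA genes. In the table's own positions, 7 of the 34 members (20.6%) hold at least 1 snoRNA gene inside their span on the same strand, against 208 of 13268 tested protein-coding genes (1.57%). They were Nop56 with 5 such genes, Nop58 with 4, Ncl, Wdr43 and Gnl3 with 3 each, and Dkc1 and Odc1 with 1 each. Of these 7, Ncl, Nop56, Nop58, Dkc1 and Odc1 fell and Wdr43 and Gnl3 did not pass. In 7 members, a gene on the opposite strand with a mean of at least 0.5 FPKM overlapped the span. The overlaps are of whole spans, not of exons, and the sources name no strand setting for these libraries. Whether reads of such pairs were told apart was not tested. Apart from Gm26628, Parp3 and Scx, given above, they were Idh3b beside Nop56 (37.6 ± 5.91 and 29.3 ± 2.79 FPKM), Pbrm1 beside Gnl3 (12.4 ± 1.67 and 14.9 ± 1.65 FPKM), Mpp1 beside Dkc1 (4.78 ± 0.991 and 3.82 ± 0.664 FPKM) and Carf beside Wdr12 (0.647 ± 0.0881 and 1.07 ± 0.215 FPKM, inflamed and desert, SD, n = 5 each).

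Taking the 5 lists of further ribosome assembly genes as 1 group, 71 of 133 tested genes fell, 23 rose and 39 did not pass (median log2 difference -0.30), and 59 and 16 had groups that did not overlap. After rescaling to TPM 92 fell and 10 rose, with a median of -0.63. Over all genes 31.2% fell and 31.0% rose (41.7% and 22.5% on TPM), and 24.4% had groups without overlap in each direction. Proliferation genes were also lower in inflamed tumours, with 14 of 18 called lower and 1 higher (median log2 difference -0.72), a list whose share of lower calls was above that of the members. Top2a, a topoisomerase of dividing cells, averaged 25.2 ± 9.04 and 58.6 ± 10.1 FPKM (limma adjusted p = 0.000291), and Mcm2, of the replicative helicase, at 7.43 ± 0.960 and 23.2 ± 4.10 FPKM (limma adjusted p = 2.06e-06). The 1 that rose was the mitotic kinase Plk1, at 76.5 ± 4.05 and 36.4 ± 6.81 FPKM (SD, n = 5 each; limma adjusted p = 2.18e-05). The 18 summed to 297 to 432 FPKM in inflamed against 420 to 614 FPKM in desert tumours, so the groups overlapped in their sum. How far the members' differences follow the share of dividing cells was not tested.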

How the data were processed

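RNA from 10 mouse gastric tumours was sequenced, 1 library per tumour, and the authors deposited 1 table of FPKM with gene lengths. The submitters' processing notes name the build mm10; the aligner, counter, annotation release and FPKM formula are not given in the sources used here. None of the 34 members had the same start in the table as in GENCODE M21 of that build, so table positions carry no build name. The extraction protocol speaks of 6 tumours; all 10 were used. FPKM times length gave whole multiples of 1 step per library (whole to within 0.01 for at least 99.97% of nonzero values), from which reads were recovered. The test was that of limma 3.58.1 (R 4.3.3), two-sided, on log2(FPKM + 1) of all genes whose mean FPKM was at least 0.5, with moderation that was robust and followed the trend, tumour type as the sole term and Benjamini-Hochberg adjusted p under 0.05; the added 1 shrinks changes of low genes. Counts of members are read against all tested genes. Tables and promoter searches used Python 3.11.15 with pandas 2.3.3, and plots matplotlib 3.10.9. Every called member and the MYC, MAX and MXD genes are given by tumour. From each other list except those of cell type markers, given by their sums and calls, the largest called rise and fall and the 2 genes of highest mean FPKM were named. Apc, Trp53, Grhl2 and the repressors Mga, Mxi1, Mnt and Mxd3 fall outside this rule and were added after their values were seen. Of the list genes, Snhg4 had more than 1 row and was left out. The members and lists were chosen with earlier results of these data known. Alternatives were a pseudocount of 0.1, no filter, a mean FPKM of at least 5, TPM, median-of-ratios and quantile scaling, voom on the recovered reads, the tumour number as a block, plain moderation in limma, array quality weights, a test against 1.5-fold change, and each tumour left out. TPM without inflamed tumour 4 was added after seeing the data.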

Additional observations from a re-analysis of the deposited data

Results flagged for a closer look

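In 7 of 68 combinations of a member and a tumour type, 1 tumour stood far from the other 4 of its group by Dixon's ratio. Chance gives such a gap in about 1 of 20 independent groups. The members share their libraries and the ratio was not computed over all genes, so the 7 cannot be weighed against that rate. Inflamed tumour 4 was lowest of its group in 27.7% of all tested genes on FPKM. Of the 7, 6 were inflamed tumour 4 as the lowest of its group. Nop56 was at 21.1 FPKM there against 25.8 to 27.5 FPKM in the other inflamed tumours, and Nolc1 at 13.9 against 19.4 to 20.5 FPKM. Wdr43 was at 12.1 against 18.2 to 20.3 FPKM, and Nop14 at 10.2 against 13.1 to 14.0 FPKM. Ddx21 was at 21.4 against 30.6 to 33.9 FPKM, and Utp20 at 3.43 against 5.09 to 5.77 FPKM. This tumour also had the largest share of its FPKM in the gastric markers (11.9%) and of its reads in mitochondrial genes (3.70%, against 2.02% to 2.44% in the other inflamed tumours), and their part was not tested. The remaining case was Npm1 in desert tumour 3, at 129 FPKM against 170 to 186 FPKM in the other desert tumours.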

How the results depend on the processing

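Over 22 alternatives, 8 of the 34 members kept their side of the threshold in every one: Mycn, Mycl, Mxd1, Fbl and Polr1a as called, and Cad, Gnl3 and Nip7 as not called. The fold change floor of 1.5 left 1 member higher and 4 lower, 2158 and 1588 of all genes, and 2 and 8 of the other ribosome assembly genes. Apart from that floor, 12 members changed in at least 1 alternative, most often Rrp9, the single reversal (-0.08 on TPM). Members called higher numbered 3 on TPM, 3 on TPM without inflamed tumour 4, 3 with voom and 8 with array quality weights. Other assembly genes called higher numbered 10 on TPM and 13 on TPM without inflamed tumour 4. A mean FPKM of at least 5 left 2784 genes higher and 3070 lower, with fewer genes tested (8466). Quantile normalization put the median of all genes at -0.11. Leaving out 1 tumour at a time gave 4 to 6 members higher and 17 to 21 lower. With the tumour number as a block 3 members were higher and 17 lower. Same-numbered tumours correlated at -0.07 to 0.08 in their deviations from the group means, so the numbers were not taken to pair them. The share of members with a motif was 65.4% for the core in place of the canonical E-box. Mycn, with 70 reads in its lowest tumour, was the least deeply covered member.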

Other observations

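Other steps of ribosomal RNA processing and the 5S particle were measured in lists of their own. Of 14 tested genes of the exosome and its helpers, which trim precursor RNA, 8 were lower and 3 higher in inflamed tumours (11 and 2 after rescaling to TPM). The shares over all genes were 31.2% and 31.0% (41.7% and 22.5% on TPM). Exosc6 was listed at 0 in all 10 tumours. The nuclease Dis3 averaged 4.76 ± 0.675 FPKM in inflamed against 12 ± 1.89 FPKM in desert tumours (limma adjusted p = 1.07e-05), Xrn2 at 27.6 ± 3.92 and 36.2 ± 2.09 FPKM (limma adjusted p = 0.00718), Exosc3 at 15.4 ± 1.15 and 20.9 ± 1.86 FPKM (limma adjusted p = 0.00109) and Mphosph6 at 9.63 ± 1.25 and 5.07 ± 1.14 FPKM (SD, n = 5 each; limma adjusted p = 0.00039). Of 9 tested non-coding snoRNA host genes, 2 were higher and 1 lower (0 and 3 after rescaling to TPM). Snhg5 was at 7.6 ± 0.688 and 4.79 ± 0.900 FPKM (limma adjusted p = 0.000999), Snhg17 at 4.81 ± 0.223 and 6.28 ± 1.45 FPKM (limma adjusted p = 0.0416), and the most abundant, Gas5, at 27.4 ± 3.34 and 29.9 ± 11.2 FPKM (adjusted p = 0.778), followed by Snhg8 at 17.9 ± 3.17 and 14.0 ± 2.25 FPKM (SD, n = 5 each; adjusted p = 0.0573).

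Rpl5 and Rpl11, the ribosomal proteins of the 5S particle, went against most of the assembly genes. Rpl11 averaged 169 ± 17.3 FPKM in inflamed against 95.4 ± 12.5 FPKM in desert tumours (limma adjusted p = 8.81e-05), and Rpl5 at 161 ± 15.6 and 99.3 ± 11.5 FPKM (limma adjusted p = 0.000198), and both were also called higher on TPM. In the list of 10 genes around this particle and p53, 4 were higher and 5 lower, against 31.0% and 31.2% of all genes. The list repeats the member Rrs1, and Rpf2 from the other large subunit genes. Trp53 itself was among the higher ones (8.56 ± 1.28 against 2.56 ± 0.656 FPKM, SD, n = 5 each; limma adjusted p = 6.84e-06). Cdkn2a, which encodes the ARF protein that MYC is known to induce, averaged 5.91 ± 4.23 FPKM in inflamed against 46.5 ± 4.88 FPKM in desert tumours (limma adjusted p = 0.000181). Its p16 product comes from the same gene and is not separated here. Cdkn1a, a p53 target that MYC is known to repress, was at 29.6 ± 14.8 and 5.12 ± 3.23 FPKM (SD, n = 5 each; limma adjusted p = 0.000189). Whether Cdkn2a or Cdkn1a follows MYC or p53 in these tumours was not tested.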
